A study of Rattus norvegicus with 2 samples.

Results

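The genes described here are 10 members of the AP-1 and immediate early response in fetal skin of Sprague Dawley rats, namely Fos, Fosb, Fosl1, Fosl2, Jun, Junb, Jund, Egr1, Atf3 and Dusp1. They were chosen by name: every non-control array row whose gene name, without a trailing tag for predicted or mapped genes, equalled 1 of the 10. All 10 were found, on 11 probes and 29 spots per array, among 14790 named genes that were detected. RNA of an E19 pool (day 18.5, 3 samples) was set against RNA of an E16 pool (day 16.5, 4 samples), both from fetal skin with no treatment labelled, and both pools were hybridised together on 2 arrays with the dyes exchanged. The labels do not say whether the pooled samples came from separate animals. Both arrays hold the same pools, so each stage is 1 replicate, no test of the stage difference exists, and the SD given beside a ratio is the technical spread of 2 arrays and holds no variation between fetuses.

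AP-1 is a family of dimeric transcription factors that bind DNA through a basic region and pair through a leucine zipper. Jun proteins can pair with each other, whereas Fos proteins need a Jun partner, so the mixture of family members in a cell sets which dimers can form. Many of these genes are immediate early genes, transcribed within minutes of growth factor, stress or wound signals without new protein synthesis, and tissue handling is a well-known inducer of Fos, Jun, Egr1 and Atf3. In the epidermis of mice and humans AP-1 binding sites lie in the control regions of cornified envelope and keratin genes.

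In the E19 pool Junb, Fosl1 and Fosl2 gave higher signals than in the E16 pool, Jund gave a lower signal, and Fos, Fosb, Jun, Egr1 and Atf3 lay within 0.2 of 0 on the log2 scale. The mean ratio was 2.21-fold for Junb, 1.77-fold for Fosl1 and 1.66-fold for Fosl2, and Jund was 1.45-fold higher in E16. The 2-fold rule asked for a 2-fold difference or more, in the same direction, on each of the arrays. None of the 10 members passed it towards E19, against 4.14% of all detected genes, and 0 of 10 passed it towards E16, against 3.75%. At a limit of 1.5-fold on each array, Junb, Fosl1 and Fosl2 were higher in E19, 3 of 10 members against 9.55% of all genes, and 0 of 10 were higher in E16, against 7.69%. The median log2 ratio of the members was 0.05 (0.02 over all detected genes), and 5 of 10 lay within 0.2 of 0 (42.9% of all detected genes). In bulk RNA, fewer cells of a type and less RNA per cell cannot be told apart.

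**Figure D1:**
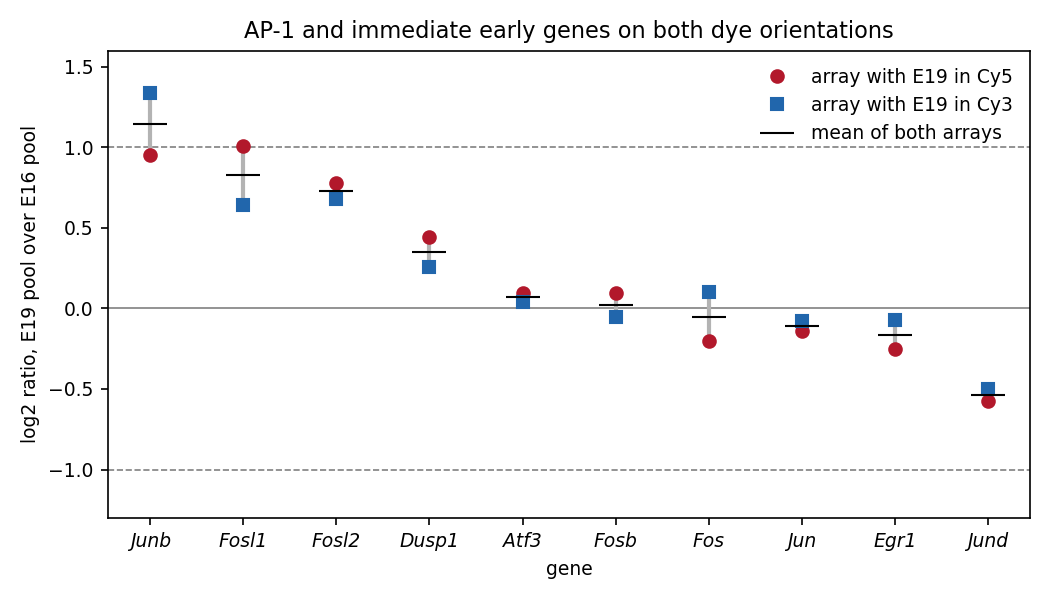
Log2 ratio of the E19 pool over the E16 pool (vertical axis) for each of the 10 genes (horizontal axis), with a circle for the array with E19 in Cy5, a square for the array with E19 in Cy3 and a bar for their mean. Junb, Fosl1 and Fosl2 lie above 0.6 on both arrays, Jund lies at or below -0.50 on both, and Fos and Fosb have opposite signs on the arrays; dashed lines mark a 2-fold difference.

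All 10 members were well above background in both pools on both arrays, so each has a measured level on either side. The same held for 14065 of 14790 detected genes. Over all non-control spots, with or without a detected gene, 71.5% to 74.3% of the signals of a pool on an array were well above background. Levels below are log2 intensities per channel after normalisation, given for the array with E19 in Cy5 and then for the array with E19 in Cy3. They compare pools within a probe, not genes with each other, and the gap between pools on an array equals the ratio of that array. Both E19 levels lay above both E16 levels for 4 of 10 members (Junb, Fosl1, Fosl2 and Dusp1; 37.5% of all detected genes), and below them for 3 of 10 (Jun, Jund and Egr1; 32.5%). For Jun the closest levels, 13.751 in E19 and 13.757 in E16, came from different arrays and nearly met. For Fos, Fosb and Atf3 the levels of the pools overlapped. The ratio was above 0 on both arrays for 5 of 10 members (42.0% of all detected genes) and below 0 on both for 3 of 10 (36.6%), with Fos and Fosb of opposite signs.

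**Figure D2:**
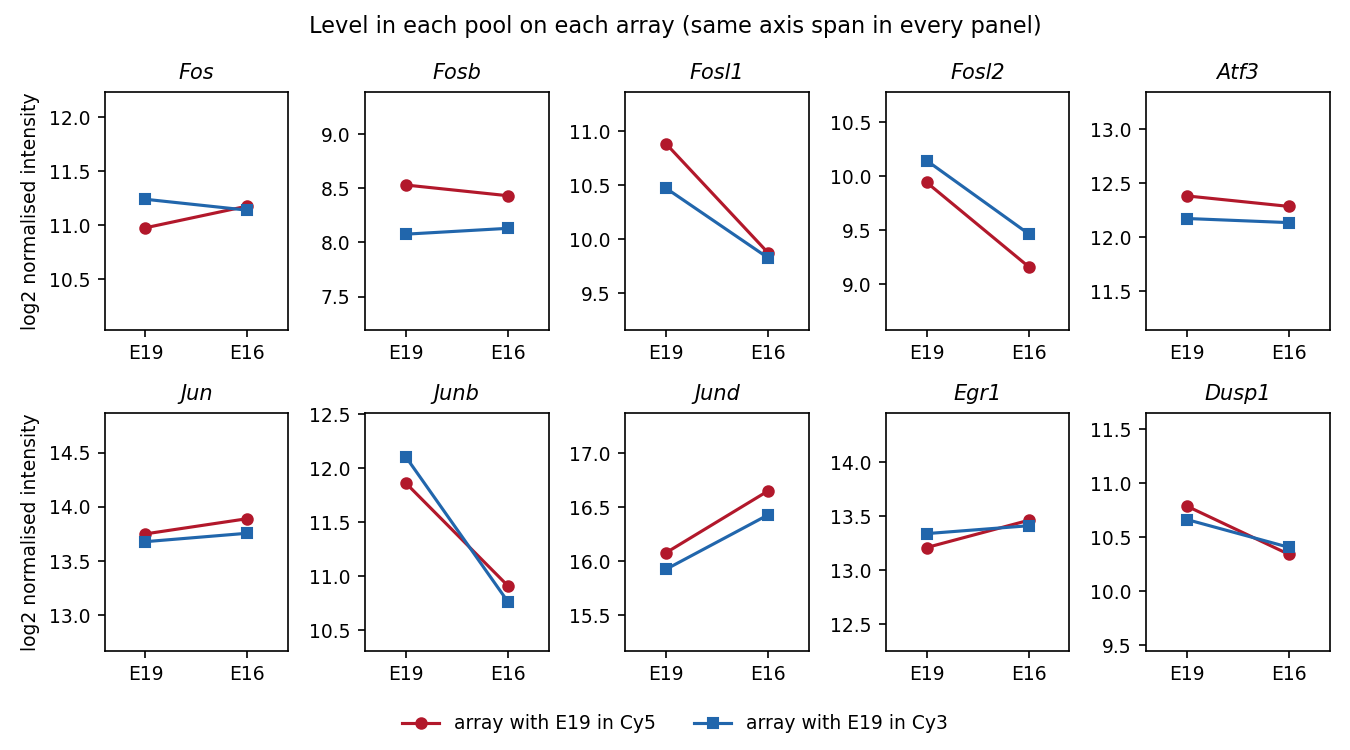
Log2 normalised intensity (vertical axis) of each gene in the E19 pool (left) and the E16 pool (right), with a line for each array. All panels span the same range, so slopes can be compared: Junb, Fosl1 and Fosl2 drop towards E16 on both arrays, Jund climbs, and the lines of Fos cross.

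The promoters of the members with the 4 ratios furthest from 0 and of Egr1, whose textbook serum response elements lie close to its start site, are shown to let the regulatory letters be read beside the measurements. The RefSeq promoter table of the GRCr8 build held 7 of the 10 members. Each sequence runs 5′ to 3′ on the gene's strand over 250 bases before and 50 bases from the start site. Capitals mark matches, on either strand, to the cyclic AMP response element TGACGTCA, its core TGACG, the EGR site GCGNGGGCG, the TATA motif TATAAA, the AP-1 site TGACTCA and the CArG box bound by serum response factor.
Junb, chr19:40080876-40081175, plus strand: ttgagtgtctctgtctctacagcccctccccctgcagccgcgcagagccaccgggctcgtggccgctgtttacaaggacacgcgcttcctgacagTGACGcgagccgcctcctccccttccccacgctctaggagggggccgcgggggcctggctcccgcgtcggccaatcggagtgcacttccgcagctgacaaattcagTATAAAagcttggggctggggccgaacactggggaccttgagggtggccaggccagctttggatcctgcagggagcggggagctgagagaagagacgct
Fosl1, chr1:212183635-212183934, plus strand: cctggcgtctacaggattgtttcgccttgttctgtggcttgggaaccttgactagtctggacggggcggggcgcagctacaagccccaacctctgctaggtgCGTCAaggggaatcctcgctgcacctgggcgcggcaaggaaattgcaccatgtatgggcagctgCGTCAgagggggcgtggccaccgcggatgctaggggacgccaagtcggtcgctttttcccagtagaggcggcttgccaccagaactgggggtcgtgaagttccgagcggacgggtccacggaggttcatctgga
Fosl2, chr6:30039220-30039519, minus strand: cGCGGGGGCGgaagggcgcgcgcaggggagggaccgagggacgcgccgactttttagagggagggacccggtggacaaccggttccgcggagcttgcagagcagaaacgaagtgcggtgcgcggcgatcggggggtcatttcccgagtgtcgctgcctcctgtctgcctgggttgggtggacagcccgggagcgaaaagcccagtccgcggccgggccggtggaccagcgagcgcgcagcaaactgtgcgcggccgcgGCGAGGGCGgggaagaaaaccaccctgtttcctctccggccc
Jund, chr16:18769722-18770021, minus strand: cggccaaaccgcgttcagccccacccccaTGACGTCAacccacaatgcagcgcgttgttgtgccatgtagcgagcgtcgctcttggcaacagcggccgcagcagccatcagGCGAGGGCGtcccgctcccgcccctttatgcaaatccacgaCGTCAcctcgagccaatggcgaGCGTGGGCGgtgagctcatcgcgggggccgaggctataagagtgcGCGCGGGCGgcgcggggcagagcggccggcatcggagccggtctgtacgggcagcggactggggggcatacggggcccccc
Egr1, chr18:26736828-26737127, plus strand: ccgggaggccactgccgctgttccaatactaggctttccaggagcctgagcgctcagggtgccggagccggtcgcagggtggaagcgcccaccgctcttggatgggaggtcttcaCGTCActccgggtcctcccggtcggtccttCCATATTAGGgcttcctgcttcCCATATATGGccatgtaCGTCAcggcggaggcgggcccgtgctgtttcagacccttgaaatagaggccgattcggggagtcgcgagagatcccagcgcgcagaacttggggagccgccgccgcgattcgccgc

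Of the 7 promoters, only that of Egr1 held CArG boxes, CCATATTAGG starting 105 bases and CCATATATGG starting 83 bases before the start site, and 1.64% of 33469 rat promoters of the same length held such a box. The full element TGACGTCA was present in Jund and Dusp1, starting 221 and 124 bases before the start site (1.83% of promoters). Its core TGACG, which the full element contains, was present in 5 of 7, all but Fosb and Fosl2, against 21.2% of promoters. EGR sites were present in Fosl2 and Jund (4.98% of promoters), TATAAA in Junb and, on the other strand, in Fosb (14.2%), and TGACTCA in 0 of 7 (4.63%). Junb, Fosl1 and Fosl2, the members with the largest ratios towards E19, shared none of these motifs across all 3 promoters. A match describes letters in this window and not a bound site.

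Among the genes of Fos proteins, the Fra genes were higher in E19 on both arrays, whereas the ratios of Fos and Fosb changed sign between the arrays. Fosl1 encodes Fra-1, which lacks the strong activation domain of Fos. It had levels of 10.88 and 10.47 in the E19 pool, against 9.88 and 9.83 in the E16 pool, so that both E19 values stood above both E16 values. Its log2 ratio was 1.01 with Cy5-labelled and 0.64 with Cy3-labelled E19 RNA (mean 0.83 ± 0.26), so it reached 2-fold on 1 array only, and 6.86% of all detected genes had a higher mean ratio.

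Fosl2 encodes Fra-2, the Fos relative known to pair with Jun proteins in differentiating keratinocytes of mice and humans. It had levels of 9.94 and 10.15 in the E19 pool, against 9.16 and 9.47 in the E16 pool, with no overlap. Its log2 ratios of 0.78 and 0.68 (mean 0.73 ± 0.07) were closer to each other than those of Fosl1 and Junb.

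Fos, the prototype immediate early gene, had levels of 10.98 and 11.24 in the E19 pool, against 11.18 and 11.14 in the E16 pool. The E19 values lay on either side of the E16 values, and the ratios of -0.20 and 0.10 (mean -0.05 ± 0.21) had opposite signs, so no difference larger than the spread of the arrays was measured. Fosb, an induced relative of Fos known from long-lasting responses in neurons, had levels of 8.53 and 8.08 in the E19 pool, against 8.43 and 8.13 in the E16 pool, and ratios of 0.10 and -0.05 (mean 0.02 ± 0.11), again of opposite sign. The levels of Fosb differed more between the arrays than between the pools. In the processed signals of the scanner software the ratios of Fosb were 0.153 and 0.075, so its sign change depended on the processing.

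The Jun genes split in 3 ways. Junb, which in mouse skin is known to restrain inflammation and to act in keratinocyte differentiation, had levels of 11.86 and 12.11 in the E19 pool, against 10.91 and 10.77 in the E16 pool. Both E19 values stood clear of both E16 values, with log2 ratios of 0.95 and 1.34 (mean 1.14 ± 0.28). It came closest to passing the 2-fold rule and missed it on the array with E19 in Cy5, where it was 1.93-fold higher in E19. A higher mean ratio was found for 3.75% of all detected genes.

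Jund, the widely expressed and least inducible Jun gene, had levels of 16.08 and 15.93 in the E19 pool, against 16.65 and 16.43 in the E16 pool, and log2 ratios of -0.57 and -0.50 (mean -0.54 ± 0.05). The probe that was used is the brighter of 2 for this gene. The dimmer probe read 10.73 and 10.95 in the E19 pool, against 11.02 and 11.08 in the E16 pool, with ratios of -0.29 and -0.14 (mean -0.21 ± 0.11). Both probes were lower in E19 on both arrays, but the size differed between them, and their mean was -0.38. The mean ratio of the brighter probe was lower than that of 89.6% of all detected genes. Its direction on single arrays rested on the loess step: with plain median centring it read 0.40 with Cy5-labelled and -1.40 with Cy3-labelled E19 RNA, for a mean of -0.50.

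Jun, the partner found in most AP-1 dimers and a target of the JNK kinases, was printed as 10 spots of 1 probe on each array. It had levels of 13.75 and 13.68 in the E19 pool, against 13.89 and 13.76 in the E16 pool. The ratio over the 10 spots was -0.14 ± 0.05 with E19 in Cy5 (range -0.20 to -0.06) and -0.08 ± 0.03 with E19 in Cy3 (range -0.13 to -0.04). Every spot lay below 0, and the mean difference was 1.08-fold towards E16. With median centring the arrays read 0.39 and -0.68, so the shared direction of Jun rested on loess as well.

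Egr1, a zinc finger factor induced through serum response factor, was likewise printed as 10 spots. It had levels of 13.21 and 13.34 in the E19 pool, against 13.46 and 13.41 in the E16 pool. The ratio over spots was -0.25 ± 0.02 (range -0.29 to -0.22) with E19 in Cy5 and -0.07 ± 0.02 (range -0.11 to -0.04) with E19 in Cy3, below 0 in 10 of 10 spots on each array. The 2 ranges did not overlap, so for Egr1 the arrays differed by more than the spots of either array, and the spot SD alone would understate the error of a ratio. With median centring the arrays read 0.22 and -0.65 for Egr1. By contrast, Junb (1.31 and 0.86), Fosl1 (1.34 and 0.27) and Fosl2 (1.07 and 0.34) were above 0 on both arrays with median centring. The probes of the other 8 members had 1 spot each on an array.

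**Figure D3:**
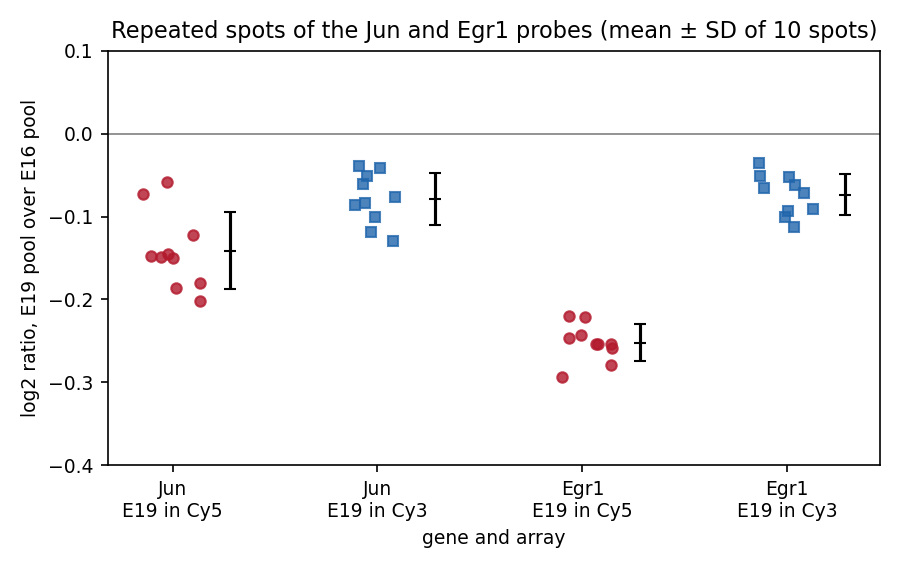
Log2 ratio of the E19 pool over the E16 pool (vertical axis) for each of the 10 spots of the Jun and Egr1 probes on each array (horizontal axis), with the mean ± SD beside them. All spots lie below 0, and the Egr1 spots of the arrays form separate clusters around -0.25 and -0.07.

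Atf3, a factor of the same zipper superfamily that is induced by cell stress and can repress transcription, had levels of 12.38 and 12.17 in the E19 pool, against 12.28 and 12.14 in the E16 pool. The pools overlapped, and the ratios of 0.10 and 0.04 (mean 0.07 ± 0.04) amounted to 1.05-fold. Dusp1, a phosphatase that inactivates the MAP kinases upstream of AP-1 and is itself an immediate early gene, had levels of 10.79 and 10.66 in the E19 pool, against 10.34 and 10.41 in the E16 pool. Its values did not overlap, and the ratios of 0.45 and 0.26 (mean 0.35 ± 0.13) amounted to 1.28-fold, with 20.2% of all detected genes at a higher ratio. With median centring the arrays read 0.78 and -0.16 for Dusp1 and 0.49 and -0.47 for Atf3, so the shared sign of both genes rested on loess too.

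**Figure D4:**
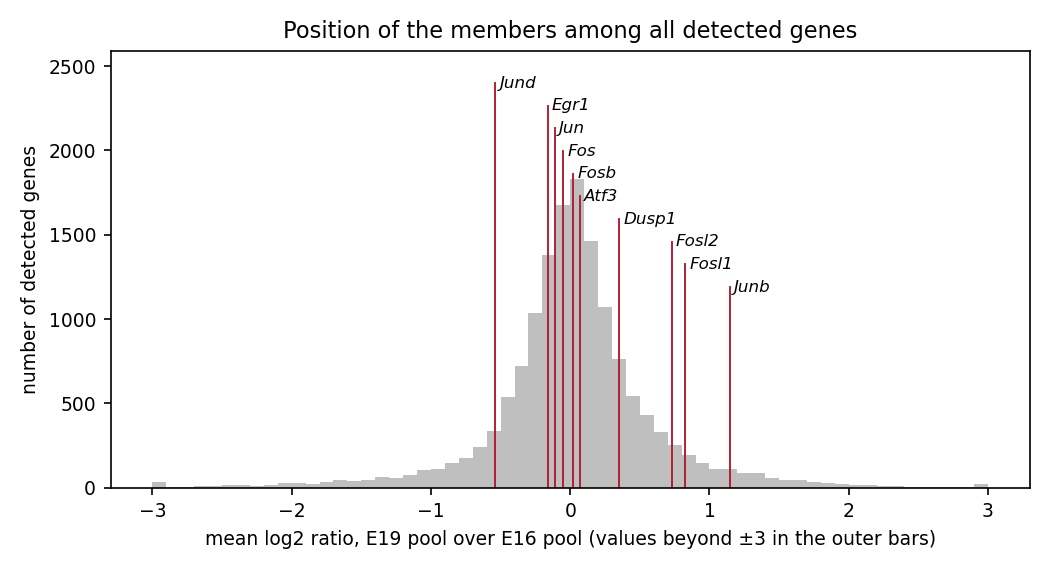
Number of detected genes (vertical axis) by mean log2 ratio of the E19 pool over the E16 pool (horizontal axis), with a line for each of the 10 members. Fos, Fosb, Jun, Egr1 and Atf3 stand in the central peak, Junb, Fosl1 and Fosl2 on the right shoulder and Jund on the left.

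The authors' deposited table, which combines the same arrays and is therefore no independent check, gave 2.24-fold for Junb, 1.86-fold for Fosl1, 1.79-fold for Fosl2 and 0.77-fold for Jund. Its log2 ratios were -0.06 for Fos, 0.12 for Fosb, -0.13 for Jun, -0.19 for Egr1, 0.06 for Atf3 and 0.40 for Dusp1. The table was matched by sequence identifier, which the 2 Jund probes share. The deposited log2 ratio of Jund was -0.38, against -0.54 for the brighter probe and -0.38 for the mean of both probes. When the arrays were centred on 10 spike-in RNAs, every log2 ratio lay 0.22 lower, the median of all genes was -0.20, and Fosb (-0.19) and Atf3 (-0.15) turned below 0 while Junb (0.93), Fosl1 (0.61), Fosl2 (0.51) and Dusp1 (0.13) stayed above it.

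Of 42 other immediate early genes detected, 2 passed the 2-fold rule towards E19 and 0 towards E16, against 4.14% and 3.75% of all detected genes. Their median log2 ratio was 0.06. At 1.5-fold 5 of 42 passed towards E19 and 4 towards E16, against 9.55% and 7.69% of all detected genes. Klf4, a factor of epidermal barrier formation, had a ratio of 1.46 ± 0.11, and the kinase gene Plk3 had 1.09 ± 0.01. Cebpb, a factor of keratinocyte and fat cell differentiation, had ratios of 0.94 and 1.05 and missed the rule on 1 array. Ptgs2, the inducible cyclooxygenase, was at -0.86 ± 0.12. Of the closest relatives of Egr1, Egr2 was at -0.20 ± 0.38 with opposite signs on the arrays, and Egr3 was at 0.16 ± 0.06, with a signal in E16 that stood well above background on 1 array only. Egr4, added after its value was seen, was at -0.65 ± 0.01, and its E19 signal was not well above background on either array, so that this value is no measured fold; in the processed signals of the scanner software it was at -2.29.

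The genes of 21 other detected zipper proteins, not all of them known partners of AP-1, had a median log2 ratio of 0.02. Towards E16, 0 passed the 2-fold rule (3.75% of all detected genes). Among them, Atf5 was at 0.87 ± 0.48, Batf3 at -0.47 ± 0.09 and Maf at 0.35 ± 0.19. Among MAP kinases and regulators of AP-1 the median was 0.22, and 1 of 18 passed, the p38 delta gene Mapk13 (1.36 ± 0.08), higher in E19. Of all detected genes, 4.14% passed towards E19. The JNK genes Mapk10 (-0.85 ± 0.14) and Mapk8 (-0.58 ± 0.02) and the kinase gene Map2k6 (-0.65 ± 0.10) had ratios below 0 on both arrays. Mapk9, the remaining JNK gene, had opposite signs on the arrays (-0.26 and 0.14, mean -0.06). Mapk10 was at -1.71 in the processed signals of the scanner software. Of 9 other MAP kinase phosphatases 0 passed towards E19 and 0 towards E16, against 4.14% and 3.75% of all detected genes. Their median was 0.17, with Dusp5 at 0.83 ± 0.14, Dusp9 at -0.81 ± 0.01, Dusp7 at 0.35 ± 0.02, Dusp2 at 0.29 ± 0.19 and Dusp6 at -0.17 ± 0.51.

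Genes known as AP-1 targets in skin had a median of 0.89. A mean ratio above 0 was found for 15 of 18, and the lowest was that of Timp1 (-0.15 ± 0.09). Of 18 detected, 6 passed the 2-fold rule towards E19 and 0 towards E16, against the 4.14% and 3.75% of all genes given above. Mmp10, counted in the 6 (1.46), was not well above background in E16 on either array, so its value is no measured fold. In the processed signals of the scanner software it was at 3.25. Mmp1, part of the median, was not well above background in E16 either. Lor, Sprr1a and Sprr1b were not found on the arrays. The collagenase Mmp13 was at 3.50 ± 0.10, the stromelysin Mmp3 at 3.27 ± 0.11 and the cornified envelope transglutaminase Tgm1 at 1.58 ± 0.14. Krt1, the suprabasal keratin, was at 1.79 ± 1.56 and missed the rule, with 2.89 when E19 was in Cy5 and 0.69 when it was in Cy3.

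Heat shock and unfolded protein genes, which include genes induced by cell stress, had a median of -0.12 (0.02 over all detected genes). A mean ratio above 0 was found for 6 of 19. Hspa1a, the inducible heat shock protein of the Hsp70 class, was the single gene of the list past the 2-fold rule (1.47 ± 0.23, higher in E19); a near-identical copy may share its probes. Hspb1, a small heat shock protein also expressed in differentiating epidermis, was at 0.81 ± 0.32. The others above 0 were Bag3 (0.54), Hspb8 (0.46), Dnajb1 (0.45) and Herpud1 (0.43), each on both arrays. Hsf2 (-1.01 ± 0.03), Dnaja1 (-0.69 ± 0.21) and Hspa4 (-0.59 ± 0.11) had ratios below 0 on both arrays. Hspa4 had 2 detected probes, and their mean was -0.20, so the size for Hspa4 depended on the probe. The labels do not describe how the skin was handled before extraction, and the part of handling in the levels of Fos, Jun, Egr1, Atf3 or any other gene was not tested.

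**Figure D5:**
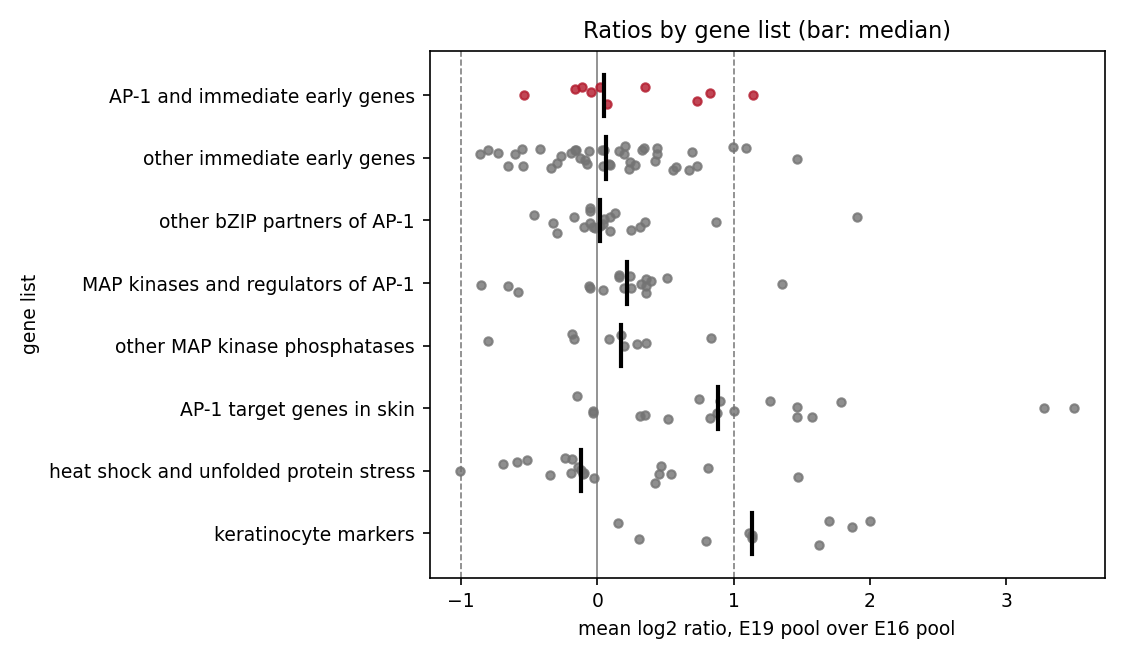
Mean log2 ratio of the E19 pool over the E16 pool (horizontal axis) of each detected gene, by gene list (vertical axis), with a bar at the median; dashed lines mark a 2-fold difference. The 10 members have a median of 0.05 and the heat shock list one of -0.12, while AP-1 targets in skin (0.89) and keratinocyte markers (1.13) lie to the right.

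The tissue label was checked against cell type markers. All 10 keratinocyte and 9 dermal fibroblast markers on the arrays were well above background in both pools. So were 14065 of 14790 detected genes, among them every detected muscle, adipocyte and endothelial marker. Being above background therefore does not tell skin from other tissue. Of all detected genes, 4.14% passed the 2-fold rule towards E19 and 3.75% towards E16. Keratinocyte markers lay above 0 in 10 of 10 cases, with a median of 1.13, 4 past the rule and a summed normalised intensity of 1129381 and 1192283 in the E19 pool, against 313882 and 609093 in the E16 pool. Krt14 and Krt10 were the largest terms of both E19 sums, and the arrays disagreed on them, with log2 ratios of 3.27 and 0.74 for Krt14 and 2.60 and 1.13 for Krt10; with saturated spots left out Krt14 was at 2.67. Dermal fibroblast markers had a median of 0.46 (8 of 9 above 0, 860997 and 705107 in E19, against 427913 and 640810 in E16). Col3a1 was the largest term of both E19 sums of that list, with log2 ratios of 1.73 and 0.06 on the arrays. Leukocyte markers had a median of 0.74 (8 of 8 above 0, 113277 and 131275 in E19, against 59995 and 58492 in E16) and adipocyte markers one of 2.18 (7 of 7 above 0, 61213 and 61750 in E19, against 5694 and 6029 in E16), and the authors' deposited table gave a median of 2.98. Neuron markers had a median of -3.01 (0 of 10 above 0, 11574 and 11847 in E19, against 63783 and 63659 in E16), and cartilage markers one of -1.90 (1 of 9 above 0, 12509 and 11329 in E19, against 44318 and 41841 in E16). In E19 the neuron marker Syt1 was well above background on 0 arrays and the cartilage marker Hapln1 on 1, so their values are no measured folds. With only genes well above background in both pools on both arrays, the medians were -3.04 and -2.03. Skeletal muscle markers had a median of 0.21, and 2 of 8 passed towards E19 and 2 towards E16 (281581 and 195342 in E19, against 376728 and 373836 in E16). Myh3 was the largest term of each muscle sum, and the arrays disagreed on it, with log2 ratios of -0.70 and -2.09. Endothelial markers (median 0.47, 7 of 8 above 0, 37232 and 42723 in E19, against 38648 and 32840 in E16) and erythroid markers (median -0.24, 2 of 5 above 0, 108080 and 120325 in E19, against 120150 and 107403 in E16) had 0 past the rule. The sums of several lists differed between the same pools as the ratios of Junb, Fosl1, Fosl2 and Jund, and their part in those ratios was not tested.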

How the data were processed

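Arrays with 2 colours and a set of 41012 rat probes were read from 1 E19 and 1 E16 RNA pool with dyes exchanged; pooling is stated in the series' design text. Per the file headers, spot intensity and local background in each channel were measured by Feature Extraction 9.5.1.1 of Agilent; the log10 ratio deposited with each array is Cy5 over Cy3. A further table deposited by the authors holds log10 ratios for both arrays together, and its way of combining is not stated in the labels or headers. Its values were matched to genes by sequence identifier, not by probe. The table was read as E19 over E16 because it correlated with both turned array ratios (r = 0.97 and 0.98).

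Background was corrected by normexp (offset 50) and ratios by loess within arrays, with control spots at weight 0, in limma 3.58.1 and R 4.3.3. Non-uniform and outlier spots were left out, spots of a probe were averaged, and ratios were turned to E19 over E16. Channel levels followed Aquantile normalisation. A gene was detected when well above background in 1 pool on both arrays; its brightest detected probe was used. Names were updated through RefSeq (GRCr8): 10726 probes matched by accession, 5580 by symbol, 3729 by synonym, 3371 kept their name and 17606 had none. The arrays' number limits the precision, and r between them was 0.90 across detected genes. In simulated data the 2-fold rule recovered 94 of 100 probes with a log2 change of 1.5 and 100 of 100 with a change of 3. The mean estimates were 1.39 and 2.73. Smaller changes, of the size of the members' ratios, were not simulated.

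Members, lists and rules were chosen with earlier results of these data known. All members were named, of each other list chiefly the 4 largest ratios, Hspa1a, Hspb1, Egr2, Egr3 and Dusp6. Further heat shock genes above 0, Mmp1, Mmp10, Mapk9, Timp1, Syt1 and Hapln1 were named after their values were seen. Cell type lists are given as counts, medians and sums. For the list of other zipper proteins, 1 result is not reported here. Alternatives covered background, normalisation, centring, probes, filters, fold limits and single arrays. Python 3.11.15 was used for counts.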

Additional observations from a re-analysis of the deposited data

How the results depend on the processing

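Genes at least 2-fold higher in E19 numbered 613 and in E16 554. Both sets of values from the scanner software, processed signals and log ratios, gave 1014 and 889. The authors' deposited table, matched by sequence identifier and with 1 value for both arrays, gave 1198 and 999. A limit of 1.5-fold gave 1413 and 1138 and one of 3-fold 178 and 230, by construction. Median centring in place of loess gave 367 in E19 and spike-in centring 390, with 439 and 809 in E16; the cause of these moves was not tested, apart from the shift of 0.22 that spike-in centring applies to every ratio. With either array alone the counts were 739 to 775 in E19 and 679 to 686 in E16. Members past 2-fold in E19 numbered 0 on both arrays, 1 in the authors' deposited table (Junb), 3 at 1.5-fold and 1 with either array alone, Fosl1 with E19 in Cy5 and Junb with E19 in Cy3; 0 passed towards E16 under any setting run. Across 11 alternatives that kept both arrays, 3 of which (the detection and saturation filters) left every member's value as it was, Junb ranged from 0.93 to 1.18, Fosl1 from 0.61 to 0.90, Fosl2 from 0.51 to 0.84 and Jund from -0.75 to -0.38, and only Fosb and Atf3 changed sign, both under spike-in centring. No paired analysis was possible because each stage is 1 pool. With median centring, which leaves intensity-dependent dye differences on each array, 3 members (Junb, Fosl1, Fosl2) had the same sign on both arrays, and the means moved by less than under spike-in centring. All 10 members were well above background, so signal over background set no bound.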
